A study of Mus musculus with 14 samples.

Results

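Caveolin 1 (Cav1), caveolin 2 (Cav2) and cavin 1 (listed under its older symbol, Ptrf) are the 3 genes described here, out of 19322 genes listed for single cells at E10, 19424 for single cells at E11 and 19425 for whole clusters. They were found by symbol, and the trio was selected on measured values, because it was chosen with the single-cell levels of these tables in view. Levels in single cells are therefore a description, with no test. Caveolae are flask-shaped pits of the plasma membrane that are plentiful in many endothelial cells. Caveolin 1 builds the bulb of the pit, caveolin 2 joins it there, and cavin 1 forms the coat around both. In endothelium, caveolae are known for carrying cargo across the cell, for buffering membrane tension and for holding the nitric oxide synthase Nos3 in check.

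The study asked how blood cells arise from the endothelium of the aorta in mouse embryos, and sequenced single sorted cells and whole intra-aortic haematopoietic clusters (IAHCs) with CEL-Seq. This protocol tags the 3′ end of each transcript, so levels need no division by gene length. E10 embryos had 28 to 32 pairs of somites and E11 embryos more than 40. From the aorta-gonad-mesonephros region (AGM) of ICR embryos of genotype Gfi+/tomato and Gfi1b+/GFP came 3 populations at each stage. These were non-haemogenic endothelium (non-HE, Cdh5+Gfi1-Gfi1b-c-kit-), haemogenic endothelium (HE, Cdh5+Gfi1+Gfi1b-c-kit-) and cells in endothelial-to-haematopoietic transition (EHT, Cdh5+Gfi1+Gfi1b-c-kit+), where Gfi1 and Gfi1b were read from the fluorescent reporters. From the AGM of C57BL/6 WT embryos came IAHC cells, sorted as c-kit+CD31+ at both stages and, in another E11 sample, as c-kit+ alone. The same strain and genotype gave E11 precursors of haematopoietic stem cells (pre-HSCs, c-kit+Cdh5+, type I without and type II with CD45), yolk sac progenitors (YS HSPCs, c-kit+) of both stages, and whole c-kit+ clusters (wIAHCs) picked singly from the ventral or dorsal wall of the aorta. AGM regions were pooled before sorting, so no cell can be assigned to an embryo. After sequencing, the authors also selected IAHC cells in silico, keeping cells with Gpr56 transcripts and dropping those with transcripts of non-IAHC genes. Whether all deposited IAHC cells had passed that selection was not tested.

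The authors had reduced every E10 cell to 3000 and every E11 cell to 5000 transcripts, so single-cell levels are set side by side within a stage unless E11 values are brought to 3000. The tables held 546 E10 and 575 E11 cells. No column name occurred in both tables, and 0 cells repeated the values of another cell. A level is the mean number of transcripts per cell, with a 95% exact Poisson interval in parentheses, and a share of cells has a 95% exact Clopper-Pearson interval. Both cover counting error only. Where a count was 0, the limit given is instead what 3 counts would make. For a share of cells this limit concerns detection only, not the share of cells that express the gene. Each population at a stage was 1 GEO sample (the pre-HSC types shared 1) of 1 to 5 sorted sets, and cells are not replicates. Strain and population cannot be told apart, since non-HE, HE and EHT cells were ICR and the others C57BL/6. For non-HE cells of E10 the columns carry a name that reads early E11, but the labels give E10, and the labels were followed. The E10 step from non-HE to HE cells and the stage comparison of non-HE cells rest on that choice: if the column names are right, age and population cannot be told apart in the former, and the latter does not compare E10 with E11. Other column names give finer ages within a stage. E10 HE sets read E10.5, E10 EHT sets E10.5 or late E10, and E11 non-HE sets E11.5 or late E11. Ages within a stage may thus differ between sets and populations, also in the other steps and stage ratios.

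Marker lists set non-HE cells apart from YS HSPCs. Part of this was fixed by the sorts, since non-HE cells were gated on Cdh5, a gene of the endothelial list. The 10 endothelial markers summed to 41.3 transcripts per cell (39.4 to 43.2) in E10 non-HE and 48.2 (45.7 to 50.8) in E11 non-HE cells, with Ramp2 the most abundant. The same sum was 0.532 (0.418 to 0.667) in E10 and 2.09 (1.7 to 2.55) in E11 YS HSPCs. The 10 haematopoietic markers ran the other way, from 0.535 (0.339 to 0.803) in E10 non-HE to 9.16 (8.67 to 9.68) in E10 YS HSPCs. At E11 they went from 0.700 (0.433 to 1.07) in non-HE cells to 12.5 in YS HSPCs, and Ptprc, Runx1, Myb, Sfpi1, Rac2 and Cd53 were at 0 in E11 non-HE cells.

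Cav2 and Cav1 are neighbours in the mouse genome. Both read in the plus direction on chromosome 6, at chr6:17281185-17289130 and chr6:17306335-17341328 (GRCm38.p6), with 17204 bases between them. Ptrf lies apart, on the minus strand of chromosome 11, at chr11:100956736-100970617. The RefSeq promoter table of the same build held all 3, Ptrf under its current symbol Cavin1. The window from 250 bases before to 50 after the first start of each gene is shown, 5′ to 3′ in the direction of the gene. The trio shared much of its pattern over the populations, but it was chosen with those levels in view. Capitals mark each match, on either strand, to GGGCGG (GC box), CGGAAG (ETS core) or ACAAT (SOX core). The windows are chr6:17280935-17281234 (plus) for Cav2, chr6:17306085-17306384 (plus) for Cav1 and chr11:100970568-100970867 (minus) for Ptrf.
Cav1: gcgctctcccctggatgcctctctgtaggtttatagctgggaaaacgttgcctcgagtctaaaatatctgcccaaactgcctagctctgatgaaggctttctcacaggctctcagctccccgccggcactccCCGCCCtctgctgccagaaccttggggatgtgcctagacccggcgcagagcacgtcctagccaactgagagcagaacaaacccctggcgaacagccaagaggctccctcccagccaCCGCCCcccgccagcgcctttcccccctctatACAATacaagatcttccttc
Cav2: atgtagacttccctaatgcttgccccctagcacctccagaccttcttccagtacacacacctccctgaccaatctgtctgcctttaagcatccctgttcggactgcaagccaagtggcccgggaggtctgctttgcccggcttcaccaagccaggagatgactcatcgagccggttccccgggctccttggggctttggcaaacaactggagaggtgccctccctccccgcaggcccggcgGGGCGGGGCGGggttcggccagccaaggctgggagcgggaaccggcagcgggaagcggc
Ptrf: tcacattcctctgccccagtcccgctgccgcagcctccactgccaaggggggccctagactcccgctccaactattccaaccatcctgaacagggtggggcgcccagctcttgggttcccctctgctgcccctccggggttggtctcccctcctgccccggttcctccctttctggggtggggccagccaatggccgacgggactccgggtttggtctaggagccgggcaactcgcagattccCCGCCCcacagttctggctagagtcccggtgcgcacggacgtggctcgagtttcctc
A GC box was the motif that all 3 windows held. Cav1 had it on the opposite strand, beginning 118 and 2 bases before the start, and Cav2 had it on its own strand 9 and 4 bases before the start, so that these copies share a base. In Ptrf it stood on the opposite strand, 7 bases before the start. The SOX core was found in Cav1 alone, 30 bases after the start, and the ETS core in 0 of the 3 windows, and no match overlapped one of another motif. Of the 32851 promoters in the table, 35.7% held the GC box, 16.9% the ETS core and 31.0% the SOX core. G and C made up 59.3% of the Cav1, 64.3% of the Cav2 and 66.7% of the Ptrf window, beside a median of 52.7% (quartiles 45.7% and 61.7%) over all promoters. The matches are letters in a window and no measurement of binding.

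Cav1, the caveolin that caveolae cannot form without, was at its highest in endothelium without haemogenic reporter. In E10 non-HE cells it had 1.84 transcripts per cell (1.45 to 2.29) and was found in 31 of 43 cells (72.1%, 56.3 to 84.7). The level was 1.89 and 1.73 in the sets of this population, and the highest single cell held 8 transcripts. E10 HE cells had 0.265 per cell (0.173 to 0.389), in 18 of 98 cells, with 0.189 and 0.311 in their sets. E10 HE cells thus lay well below E10 non-HE cells in each set. E10 EHT cells had 3 transcripts in 191 cells (0.0157 per cell, 0.00324 to 0.0459). None was seen in 73 E10 IAHC cells or in 141 E10 YS HSPCs. The 3-count limits on the share with a detected transcript are 4.11% and 2.13%. In the order of E10 levels, the intervals of non-HE, HE and EHT cells did not overlap, whereas those of EHT cells, IAHC cells and YS HSPCs did.

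At E11 Cav1 kept the lower level of EHT cells, but HE cells were close to non-HE cells. E11 non-HE cells had 2.33 transcripts per cell (1.82 to 2.95), in 20 of 30 cells, and E11 HE cells 1.87 (1.5 to 2.31), in 29 of 46 cells. Their intervals overlapped, and the sets of E11 non-HE cells were at 2.36 and 2.32. E11 EHT cells were lower, with 0.174 (0.0751 to 0.343) and a transcript in 4 of 46 cells. Beyond EHT the counts were too few to rank: 2 transcripts in 62 type I pre-HSCs, 3 in 201 c-kit+CD31+ and 2 in 89 c-kit+ IAHC cells, and 2 in 46 YS HSPCs. In 55 type II pre-HSCs the count was 0, with a 3-count limit of 5.45% on the share with a detected transcript. From E11 EHT cells down, each neighbour in the order overlapped the next.

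Cav2, which needs caveolin 1 to reach the cell surface, was scarcer than Cav1 in non-HE and HE cells at both stages. At E10 it had 0.326 transcripts per cell (0.178 to 0.546) in non-HE, 0.163 (0.0933 to 0.265) in HE and 0.0471 (0.0215 to 0.0894) in EHT cells, found in 12 of 43, 12 of 98 and 8 of 191 cells. The count was 0 in E10 IAHC cells and in E10 YS HSPCs, with the same limits on detection as for Cav1. The E10 sets ranged from 0.267 to 0.357 in non-HE, from 0.162 to 0.164 in HE and from 0 to 0.0690 in EHT cells. So the level stepped down from population to population, but the intervals of E10 non-HE and HE cells overlapped, and those of HE and EHT cells did not.

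At E11, Cav2 kept the order of Cav1 among the endothelial populations. Non-HE cells had 0.400 (0.207 to 0.699), HE cells 0.326 (0.183 to 0.538) and EHT cells 0.0870 (0.0237 to 0.223), in 9 of 30, 10 of 46 and 3 of 46 cells. Of the 4 Cav2 transcripts in E11 EHT cells, 3 lay in 2 cells that also held at least 4 of 8 macrophage markers. There were 2 transcripts in type I pre-HSCs, 4 in c-kit+CD31+ and 1 in c-kit+ IAHC cells. In type II pre-HSCs and in E11 YS HSPCs the count was 0. The 3-count limits on the share with a detected transcript are 5.45% and 6.52%. All neighbours in the E11 order of Cav2 had overlapping intervals.

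Ptrf, the cavin that shapes the caveolar coat, was the member with transcripts in all 13 populations. Its E10 levels were 1.33 per cell (1.00 to 1.72) in non-HE, 0.694 (0.539 to 0.880) in HE, 0.277 (0.208 to 0.363) in EHT and 0.233 (0.136 to 0.373) in IAHC cells. In E10 YS HSPCs 4 transcripts were counted, or 0.0284 per cell (0.00773 to 0.0726). A transcript was seen in 27 of 43, 46 of 98, 41 of 191, 16 of 73 and 3 of 141 of these cells. Only EHT and IAHC cells overlapped as neighbours in the E10 order. The sets ranged from 1.14 to 1.67 in non-HE, from 0.639 to 0.784 in HE and from 0.200 to 0.359 in EHT cells, so the sets of these 3 populations did not overlap.

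At E11, Ptrf was highest in HE cells, at 2.11 per cell (1.71 to 2.57) and in 41 of 46 cells. Non-HE cells had 1.83 (1.38 to 2.39), in 22 of 30 cells, and their sets were at 1.55 and 2.00, so the intervals of the pair overlapped. EHT cells had 0.804 (0.566 to 1.11), in 20 of 46 cells. Type I pre-HSCs had 0.694 (0.502 to 0.934), c-kit+CD31+ IAHC cells 0.602 (0.5 to 0.719) and c-kit+ IAHC cells 0.494 (0.359 to 0.664). These populations, in which caveolin transcripts were nearly absent, still had a Ptrf transcript in 32 of 62, 80 of 201 and 27 of 89 cells. Type II pre-HSCs had 0.218 (0.113 to 0.381), in 10 of 55 cells, and YS HSPCs 0.196 (0.0895 to 0.371), in 6 of 46 cells. Among neighbours in the E11 order, the intervals of non-HE and EHT cells were apart, and all others overlapped. The 4 sets of c-kit+CD31+ IAHC cells ranged from 0.488 to 0.840 and the 5 sets of c-kit+ IAHC cells from 0.143 to 0.875, a spread wider than the gap between the 2 populations.

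**Figure D1:**
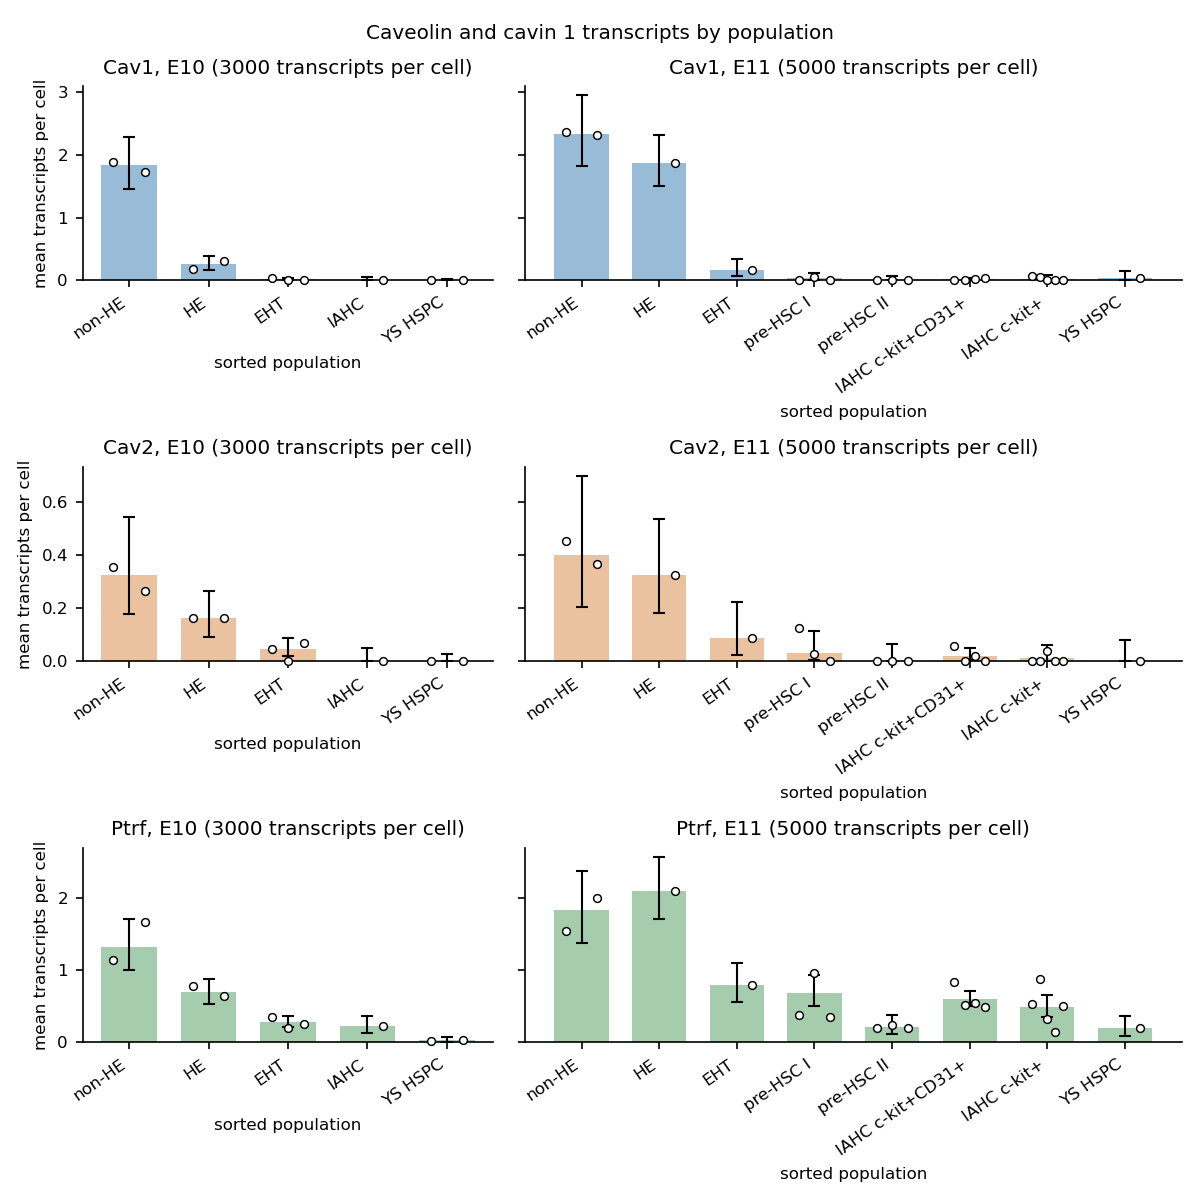
Mean transcripts per cell of Cav1, Cav2 and Ptrf (bars) in each sorted population at E10 (left) and E11 (right), with 95% Poisson intervals (lines) and the mean of each sorted set (circles). Cav1 drops between non-HE and HE cells at E10, from 1.84 to 0.265, and between HE and EHT cells at both stages, from 0.265 to 0.0157 at E10 and from 1.87 to 0.174 at E11, while Ptrf stays visible in IAHC cells and pre-HSCs.

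The steps along the path from endothelium to EHT cells put these levels side by side, as log2 ratios of means with 0.1 transcripts per cell added and with exact conditional intervals. At the first E10 step, from non-HE to HE cells by their labels, the ratio was -2.41 (-2.92 to -1.87) for Cav1, -0.69 (-1.44 to 0.10) for Cav2 and -0.84 (-1.32 to -0.36) for Ptrf. Cav1 was the member past -1, where 4.19% of the 4252 genes at or above 0.2 transcripts per cell in either population were at -1 or below. Between E10 HE and EHT cells the ratio was -1.66 (-1.91 to -1.15) for Cav1, -0.84 (-1.32 to -0.25) for Cav2 and -1.07 (-1.50 to -0.64) for Ptrf. Cav1 and Ptrf were past -1, beside 6.71% of 4205 genes, and Cav2 was under the minimum level. With 0.5 added in place of 0.1, the ratio was -0.57 for Cav1 and -0.62 for Ptrf, both short of -1. All 3 members thus had their lower level on the EHT side.

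At E11 the first step was flat and the next was steep. From non-HE to HE cells the ratio was -0.31 (-0.76 to 0.15) for Cav1, -0.23 (-1.15 to 0.71) for Cav2 and 0.19 (-0.28 to 0.67) for Ptrf, so that 0 of 3 members were past -1, beside 5.24% of 5874 genes. All 3 intervals hold 0. From HE to EHT cells it was -2.85 (-3.55 to -2.08) for Cav1, -1.19 (-1.97 to -0.17) for Cav2 and -1.29 (-1.81 to -0.77) for Ptrf, so that 3 of 3 were past -1, beside 9.49% of 5703 genes. Because the trio was chosen with such values in view, nothing is read from these counts. Without the cells that held at least 4 macrophage markers the E11 ratio of Cav2 was -1.80, but it was -0.96 in cells thinned to 3000 transcripts and -0.49 with 0.5 added in place of 0.1, both short of -1. With 0.5 added, that of Cav1 was -1.81.

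**Figure D2:**
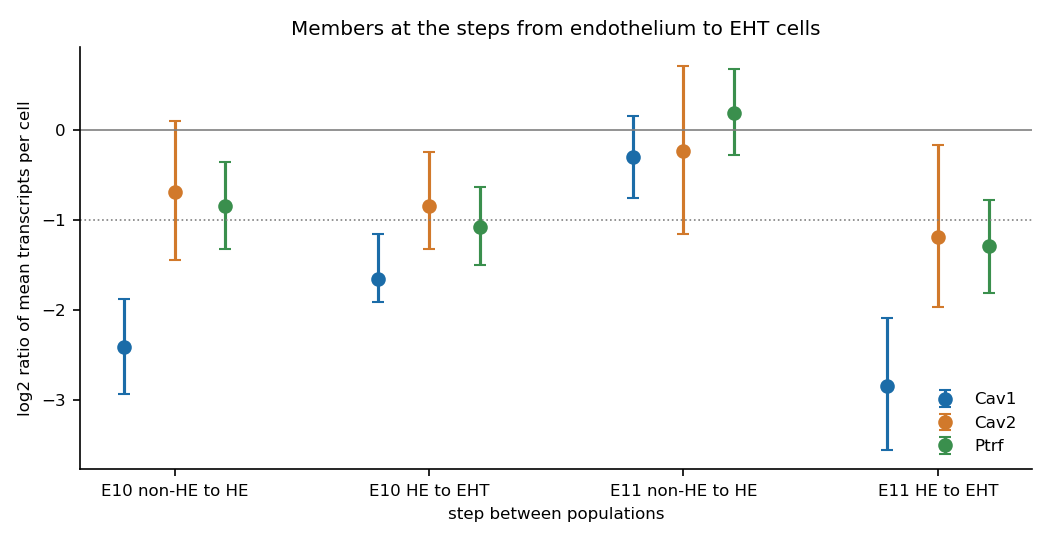
Log2 ratio of mean transcripts per cell between successive populations (to over from) for Cav1, Cav2 and Ptrf, with 95% exact conditional intervals and a dotted line at -1. Cav1 is the lowest member at each step up to EHT cells, at -2.41 and -1.66 at E10 and at -0.31 and -2.85 at E11. All 3 intervals hold 0 at the E11 step from non-HE to HE cells.

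Past EHT, Ptrf was the member with enough transcripts to follow. Its ratio was -0.18 (-0.77 to 0.41) from E10 EHT to IAHC cells and -1.37 (-1.78 to -0.72) from these IAHC cells to YS HSPCs. At E11 it was -0.19 (-0.78 to 0.40) from EHT cells to type I pre-HSCs, -0.37 (-0.85 to 0.13) to c-kit+CD31+ and -0.61 (-1.17 to -0.03) to c-kit+ IAHC cells, and -1.61 (-2.38 to -0.79) to YS HSPCs. In the 47 of 89 c-kit+ IAHC cells that passed a filter on Gpr56 and non-IAHC genes, applied here to the deposited cells and no copy of the authors' own selection, the ratio was -0.97. Yolk sac cells thus lay lowest at E10, while at E11 their interval overlapped that of type II pre-HSCs. From type I to type II pre-HSCs the ratio was -1.32 (-2.02 to -0.59), but 33 of the 43 type I transcripts came from 1 of 3 sets, the one at 0.971 per cell beside 0.375 and 0.350. Without that set the ratio was -0.52, and -0.61 without the sets of the same number in both types. Type II sets were at 0.200, 0.240 and 0.200, each below the type I set of its number. The rich type I set also weighs on the ratio from E11 EHT cells to type I pre-HSCs. With sets weighted equally that ratio was -0.44. For Cav1 the ratio from E11 EHT cells was -1.05 (-1.58 to -0.05) to type I pre-HSCs and -1.25 (-1.65 to -0.54) to c-kit+CD31+ IAHC cells, on 8 transcripts against 2 and 3. With 0.5 added the latter was -0.39.

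Between stages, E11 cells were brought to 3000 transcripts per cell. The HE populations differed most for Cav1: the E11 level at this depth was 1.1, beside 0.265 at E10, a log2 ratio of E11 to E10 of 1.74 (1.2 to 2.25). The share of HE cells with a Cav1 transcript was 18.4% at E10 and 51.4% at E11. For Ptrf the HE ratio was 0.78 (0.37 to 1.2) and for Cav2 0.17 (-0.53 to 0.86). So the measured levels of Cav1 and Ptrf were higher in E11 HE than in E10 HE cells, while the Cav2 interval holds 0. These intervals cover counting error only, and the stage difference was not tested. E11 EHT cells were also above E10 EHT cells, by 0.82 (0.21 to 1.18) for Cav1, on 8 transcripts at E11 (before thinning) and 3 at E10, and by 0.63 (0.12 to 1.1) for Ptrf. Non-HE cells gave -0.37 (-0.82 to 0.09) for Cav1, -0.32 (-1.19 to 0.57) for Cav2 and -0.25 (-0.76 to 0.27) for Ptrf, with E10 taken from the labels against the column names. These intervals all hold 0, as did that of Cav2 in EHT cells, at 0.05 (-0.49 to 0.69). In the endothelial populations, intervals apart from 0 were thus those of Cav1 and Ptrf in HE and EHT cells, and the difference between populations was not tested. E11 HE and E11 EHT cells came from 1 set each, so that set and stage cannot be told apart. For c-kit+CD31+ IAHC cells the Ptrf ratio was 0.47 (-0.08 to 1.01), and for YS HSPCs it was 0.76 (0.08 to 1.23) on 9 and 4 transcripts.

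**Figure D3:**
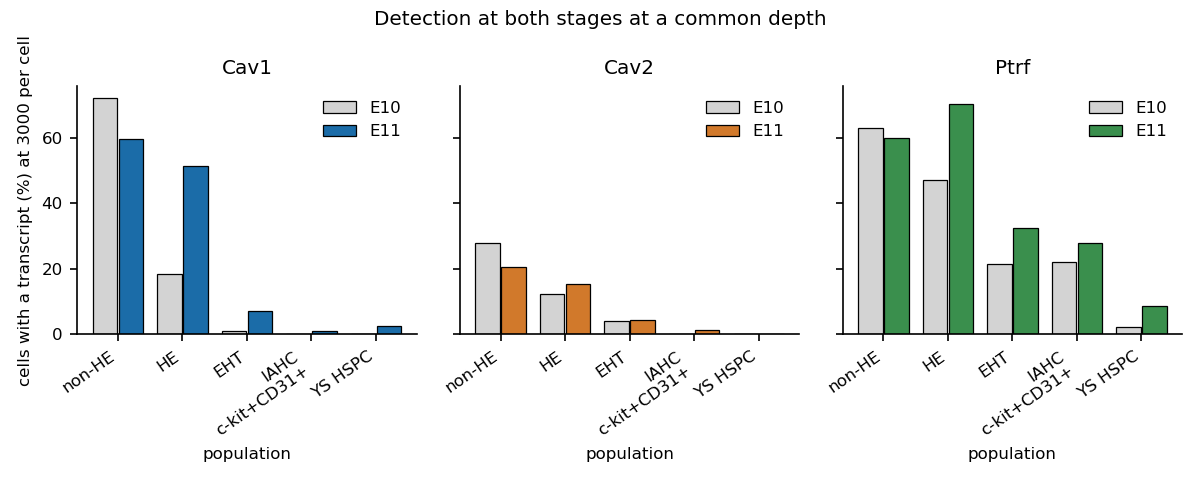
Percent of cells with a transcript of Cav1, Cav2 or Ptrf at 3000 transcripts per cell, at E10 (grey) and E11 (colour), in the 5 populations sorted alike at both stages, drawn without error bars. The Cav1 bars of HE cells stand at 18.4% and 51.4%, and those of Ptrf at 46.9% and 70.1%.

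Whether the same cells held the genes could be read cell by cell. In E11 HE cells, all 29 cells with a Cav1 transcript also had Ptrf (100%, 88.1 to 100), beside 12 of the 17 cells without Cav1 (70.6%, 44 to 89.7). In E10 non-HE cells, Ptrf was found in 23 of 31 cells with Cav1 (74.2%, 55.4 to 88.1) and in 4 of 12 without (33.3%, 9.92 to 65.1). E10 HE cells showed little of this, with 9 of 18 cells with Cav1 (50%) and 37 of 80 without (46.2%) holding Ptrf. Cav2 was found in 6 of those 18 E10 HE cells with Cav1 and in 6 of the 80 without. This was not so in E11 HE cells, with Cav2 in 5 of 29 cells with Cav1 (17.2%) and 5 of 17 without (29.4%), or in E10 non-HE cells, with 9 of 31 (29.0%) and 3 of 12 (25%). In E11 non-HE cells with and without Cav1, Cav2 was found in 8 of 20 and 1 of 10 and Ptrf in 16 of 20 and 6 of 10. Transcripts of all 3 members met in 8 E10 non-HE, 5 E10 HE, 7 E11 non-HE and 5 E11 HE cells, and in 0 cells of the other 9 populations. All cells of a stage had the same total, so depth did not differ between these cells, and sparse counts leave many cells with a transcript unseen.

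The trio was also alike over the 13 population means, taken as log2 of transcripts per 3000 plus 0.1. Pearson's r was 0.966 between Cav1 and Cav2, 0.871 between Cav1 and Ptrf and 0.897 between Cav2 and Ptrf. These are descriptions over populations that share strain, set and sort. The trio was chosen with these levels in view, so nothing is read from its likeness. Each gene named next was closer to its member than the members were to each other. Among 2336 genes with at least 0.5 per 3000 in 1 population, the patterns most like Cav1 included those of Nfia (r = 0.993), Fbln2 (0.986), Dhh (0.984) and Tm4sf1 (0.977). Nfia encodes a transcription factor, Fbln2 an extracellular matrix protein, Dhh a hedgehog ligand and Tm4sf1 a membrane protein of endothelium. For Cav2 the nearest 5 were Tcf7l1 (0.988), Prss23 (0.986), Akap2 (0.985), Sparcl1 (0.983) and Sparc (0.983). Ptrf was nearest to Arrdc3 (0.979), Grb10 (0.978), Lphn1 (0.974), Nrep (0.972) and Dbn1 (0.970). Of the genes named, Dhh was highest in E11 non-HE and Nrep in E11 HE cells, and the others in E10 non-HE cells. The make-up of every list moved with the amount added. With a lower minimum level the lists of Cav1 and Cav2 moved, and Ptrf kept its 5 genes.

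The other genes of the caveolar coat and neck did not all go with the members. This list of 11 genes holds Cav3, the other cavins (Sdpr, Prkcdbp, Murc), the Ehd ATPases that sit at the neck and the membrane-bending Pacsin proteins. From E10 non-HE to HE cells, 0 of the 5 genes above the minimum were at -1 or below (median 0.08, beside 0.05 over all genes). Prkcdbp (cavin 3) had 1.79 transcripts per cell (1.41 to 2.2) in E10 non-HE and 2.64 (2.33 to 2.99) in E10 HE cells, a log2 ratio of 0.54 (0.18 to 0.90). Ehd4 gave 0.57 (0.03 to 1.13), Ehd1 -0.34 (-1.01 to 0.35) and Pacsin2 -0.13 (-0.94 to 0.68) at the same step. So at this step the coat partner Prkcdbp was higher in HE cells, while Cav1 was lower in them.

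At the E10 step from HE to EHT cells, 3 of 5 genes of the coat and neck list were at -1 or below, with a median of -1.22 beside 0.04 over all genes. Prkcdbp gave -1.22 (-1.47 to -0.97) and Ehd4 -1.46 (-1.84 to -1.07), while Ehd1 gave -0.41 (-0.91 to 0.09) and Pacsin2 0.10 (-0.46 to 0.64). The gene below -1 beside them was Sdpr (cavin 2), at -2.06 (-2.39 to -1.57), named after its value was seen. From E11 non-HE to HE cells, 0 of 6 were at -1 or below (median 0.15, beside -0.01 over all genes), with Prkcdbp at 0.42 (0.02 to 0.82) and Ehd4 at 0.67 (0.11 to 1.2). From E11 HE to EHT cells, 2 of 6 were at -1 or below (median -0.93, beside -0.07), which were Sdpr and Ehd1, the latter at -1.06 (-1.84 to -0.26). Prkcdbp gave -0.88 (-1.27 to -0.50) and Ehd4 -0.97 (-1.50 to -0.46) there. Prkcdbp remained in IAHC cells, at 0.603 (0.438 to 0.809) at E10 and 0.393 (0.274 to 0.547) in E11 c-kit+ cells, which resembles Ptrf more than Cav1. Cav3, the muscle caveolin, was at 0 in all 13 populations.

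Proteins that sit in or bind endothelial caveolae were given as a list of 8. Plvap, which forms the diaphragm across the mouth of caveolae, was the most abundant, with 4.14 transcripts per cell (3.55 to 4.79) in E10 non-HE and 5.40 (4.95 to 5.88) in E10 HE cells, a log2 ratio of 0.37 (0.13 to 0.62). In this step 1 of 7 genes above the minimum was at -1 or below (median -0.17), namely the VEGF receptor Kdr at -1.0 (-1.69 to -0.27), while Nos3 gave -0.17 (-0.71 to 0.39) and the dynamin Dnm2 -0.30 (-1.05 to 0.46). From E10 HE to EHT cells 2 of 6 were at -1 or below (median -0.55). These were Plvap at -1.88 (-2.09 to -1.68) and Nos3 at -1.24 (-1.67 to -0.80). At E11 the list was at 0 of 7 from non-HE to HE cells (median 0.21) and at 4 of 7 from HE to EHT cells (median -1.36). There Plvap gave -1.74 (-2.08 to -1.40), Nos3 -1.43 (-1.98 to -0.88), Kdr -1.64 (-2.40 to -0.85) and Dysf, named after its value was seen, -1.36 (-2.14 to -0.39), with Dnm2 at -0.76 (-1.54 to 0.03). Cav1 and Plvap thus moved apart at the first E10 step and together at the step into EHT.

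Other routes of endocytosis served as a comparison. Of 12 genes of flotillins and clathrin endocytosis, 0 were at -1 or below in each of the 4 steps, out of 10, 8, 8 and 9 above the minimum, with medians of -0.09, -0.21, -0.05 and -0.28. Their summed level stayed between 5.39 (5.06 to 5.73, EHT) and 6.19 (5.46 to 6.98, non-HE) transcripts per cell at E10 and between 6.83 (6.09 to 7.62, EHT) and 8.63 (7.61 to 9.75, non-HE) at E11. Clta, a clathrin light chain, gave -0.14, 0.12, 0.03 and 0.19 at the 4 steps, and the clathrin heavy chain Cltc gave 0.42, -0.49, 0.00 and -0.28. The adaptor genes Ap2s1 and Ap2m1 gave 0.08 and -0.05 at the first step and -0.68 and -0.18 at the last. At both steps into EHT cells, with 0.1 added, the ratios of the members were below those of all 12 genes. The trio was chosen with such levels in view, so nothing is read from this, and the difference was not tested. With 0.5 added, the E10 ratio of Cav2 from HE to EHT cells was -0.28, and the list was not compared at that setting.

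Genes beside the members on the chromosome were the last list, with Tes, Met, Capza2 and St7 near Cav1 and Cav2, and Stat3, Atp6v0a1 and Naglu near Ptrf. From E10 non-HE to HE cells 0 of 5 were at -1 or below (median -0.40), and from E10 HE to EHT cells 0 of 4 (median 0.09). At E11 it was 1 of 6 from non-HE to HE cells (median -0.14), which was Naglu, named after its value was seen, at -1.05 (-1.96 to 0.04), while Met, also named after its value was seen, was at 1.36 (0.21 to 2.22). It was 0 of 6 from HE to EHT cells (median -0.35). Next to Cav1 at -2.85 in the last step stood Tes at -0.59 (-1.22 to 0.03) and Capza2 at -0.40 (-1.06 to 0.26), and next to Ptrf at -1.29 stood Stat3 at -0.30 (-0.89 to 0.28) and Atp6v0a1 at -0.08 (-0.97 to 0.81).

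Most endothelial markers fell with the members at both steps into EHT cells. The endothelial list had all 10 genes above the minimum at each step, and 1, 8, 0 and 8 of them were at -1 or below in the order E10 non-HE to HE, E10 HE to EHT, E11 non-HE to HE and E11 HE to EHT, with medians of -0.47, -1.38, 0.19 and -1.33. Its summed level was 27.7 (26.7 to 28.8) in E10 HE, 10.6 (10.2 to 11.1) in E10 EHT and 7.08 (6.48 to 7.72) in E10 IAHC cells. In E11 cells it was 57.7 (55.5 to 59.9) in HE, 22.7 (21.3 to 24.1) in EHT, 14 (13.1 to 15.0) in type I and 7.18 (6.49 to 7.93) in type II pre-HSCs, and 12.1 (11.6 to 12.6) in c-kit+CD31+ and 7.56 (7.0 to 8.16) in c-kit+ IAHC cells. So the E10 levels of Cav1 followed the endothelial sum in their order. At E11 the sum was highest in HE cells and Cav1 in non-HE cells. Ramp2 was the most abundant endothelial marker in non-HE and HE cells, and Cldn5 was at 0 in E10 YS HSPCs.

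Haematopoietic markers went up over the steps into EHT, with 6 of 7 and 7 of 8 genes at 1 or above at E10 and E11 (medians 2.12 and 2.45). Their sum was 1.3 (1.13 to 1.6) in E10 HE, 5.55 (5.23 to 5.90) in E10 EHT and 9.03 (8.35 to 9.74) in E10 IAHC cells. The E11 sums were 1.26 (0.957 to 1.63) in HE, 7.46 (6.69 to 8.29) in EHT, 9.82 (9.06 to 10.6) in type I and 12.8 (11.9 to 13.8) in type II pre-HSCs, and 12 (11.6 to 12.5) and 10.4 (9.71 to 11.1) in c-kit+CD31+ and c-kit+ IAHC cells. Laptm5 was the most abundant of them in HE and EHT cells. The part of either marker list in the levels of the members was not tested.

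**Figure D4:**
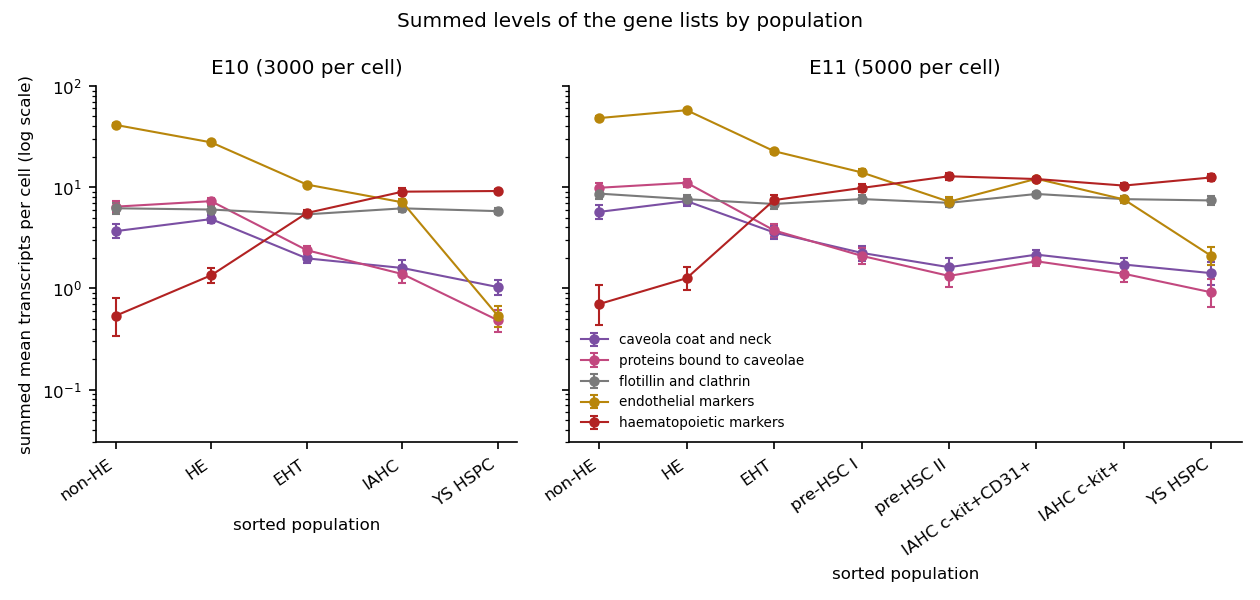
Summed mean transcripts per cell (log scale) of 5 gene lists in each population at E10 and E11, with 95% Poisson intervals. The flotillin and clathrin list stays between 5.39 and 6.19 at E10 and between 6.83 and 8.63 at E11, the endothelial, coat and neck, and caveola-bound lists step down at EHT, and haematopoietic markers go up.

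Markers of other cell types were low in most populations, and the sorts of non-HE, HE, EHT and pre-HSC cells required Cdh5 and those of c-kit+CD31+ cells CD31. The 10 mesenchymal and mural markers summed to 1.19 (0.883 to 1.56), 1.49 (1.26 to 1.75), 0.869 (0.742 to 1.01), 0.658 (0.485 to 0.872) and 0.113 (0.0649 to 0.184) in E10 non-HE, HE, EHT, IAHC and YS cells, with Col3a1 the most abundant in non-HE cells and Acta2 in the others. Pdgfrb was at 0 in the E10 non-HE, HE, EHT and IAHC cells. The E11 sums were 1.7 (1.27 to 2.2) in non-HE, 2.30 (1.89 to 2.79) in HE, 1.46 (1.13 to 1.85) in EHT, 1.1 (0.852 to 1.4) in type I and 0.582 (0.398 to 0.821) in type II pre-HSCs. E11 IAHC cells had 1.30 when sorted as c-kit+CD31+ and 1.6 when sorted as c-kit+, and YS HSPCs 0.174 (0.0751 to 0.343). Pdgfrb was at 0 in E11 HE and EHT cells too. At the 4 steps, 0 of 2, 1 of 2, 0 of 4 and 3 of 4 of these genes above the minimum were at -1 or below (medians 0.26, -0.82, 0.80 and -1.38). The part of such cells in the levels was not tested. Sums of mesenchymal and macrophage markers in IAHC cells may also reflect the authors' selection against non-IAHC cells, which was not tested.

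Macrophage markers, a list of 8, were at 0 in all non-HE cells and summed to 0.112 (0.0560 to 0.201) in E10 HE and 0.109 (0.0353 to 0.254) in E11 HE cells. Their highest sum was 2.35 (1.93 to 2.83) in E11 EHT cells, where Lyz2 was the most abundant and C1qa was at 0. In all other populations it was between 0.326 and 0.741. At least 4 of the 8 were met in 2 E11 EHT cells, which held 0 Cav1 and 0 Ptrf transcripts, and in 1 E10 HE cell, which held 1 Cav1 transcript. The 8 erythroid markers summed to 0.694 (0.539 to 0.880) in E10 HE and 0.0419 (0.0181 to 0.0825) in E10 EHT cells, and to 0.674 (0.458 to 0.957) and 0.0652 (0.0134 to 0.191) in the same cells at E11, with Klf1 at 0 in HE cells and Hbb-y the most abundant. Elsewhere they summed to 1.51 (1.2 to 1.82) in E10 IAHC cells, 1.59 (1.4 to 1.81) in E10 and 5.04 (4.42 to 5.74) in E11 YS HSPCs, and 3.47 (3.02 to 3.96) in type I and 2.35 (1.96 to 2.79) in type II pre-HSCs. E11 IAHC cells were lower, at 0.149 (0.101 to 0.213) for c-kit+CD31+ and 0.517 (0.378 to 0.689) for c-kit+ cells. In non-HE cells they summed to 0.0930 (0.0253 to 0.238) at E10 and 0.167 (0.0541 to 0.389) at E11. Sets differed widely for Hbb-y, which was at 0.0270 and 0.475 in the E10 HE sets. It ranged from 0 to 4.65 over type I and from 0 to 3.05 over type II pre-HSC sets. The pooled erythroid sums of these populations thus rest unevenly on their sets.

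Whole clusters were the measurement with replicate libraries. Of 109 wIAHC libraries, the 57 with at least 5000 transcripts were used (at E10, 21 ventral and 7 dorsal, and at E11, 17 ventral and 12 dorsal), with totals from 5099 to 115328 transcripts. Levels are transcripts per 10000 of a library. Fewer cells of a type and less RNA per cell cannot be told apart in a whole cluster. Clusters of the same embryo cannot be recognised, so p-values measure only the spread between picked clusters.

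Ptrf was the member that whole clusters regularly held, with 78 transcripts in 30 of the 57 libraries. The lowest, median and highest library stood at 0, 0.361 and 1.58 in E10 ventral, 0, 0.711 and 2.92 in E10 dorsal, 0, 0 and 3.85 in E11 ventral, and 0, 0.290 and 3.26 in E11 dorsal clusters. The groups overlapped over most of their range. Pooled over libraries, the level was 0.455 (0.307 to 0.650), 0.592 (0.306 to 1.03), 0.780 (0.510 to 1.14) and 0.790 (0.379 to 1.45) in the same order. Single clusters thus ranged from 0 to several transcripts, with no group apart from the others.

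Caveolins were rare in whole clusters. Cav1 had 2 transcripts in all, 1 in an E11 ventral and 1 in an E11 dorsal library. It was at 0 in the 21 E10 ventral libraries, which allows up to 0.0455 per 10000, and in the 7 E10 dorsal libraries, which allows up to 0.148. Cav2 had 5 transcripts in 3 E10 ventral libraries, 1 in an E10 dorsal library and 4 in 4 E11 ventral libraries, or 0.0759 (0.0246 to 0.177), 0.0494 (0.00125 to 0.275) and 0.120 (0.0327 to 0.307) per 10000. In E11 dorsal libraries it was at 0, which allows up to 0.237. The clusters picked whole and the IAHC cells sorted singly were alike in holding Ptrf and almost no caveolin transcripts.

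0 of the 3 members passed the filter on low counts, so the edgeR test on 260 genes gave no value for them. For background, it called 24 genes between stages in dorsal clusters (9.23%) and 81 in ventral clusters (31.2%) at an adjusted p of 0.05. With a covariate for the E11 libraries whose column names read iAHC2, the ventral count was 39. All E10 libraries shared the other level of this covariate with the remaining E11 libraries. Libraries of at least 10000 transcripts gave 3 dorsal and 132 ventral genes. Collections are not labelled, so stage and collection cannot be told apart in these counts. The test at 5000 called 0 genes (0%) between sides at E10, between sides at E11 and in the interaction of stage and side, where 20, 23 and 26 genes had an unadjusted p under 0.05. DESeq2 also called 0 there, with 23, 26 and 25 genes at an unadjusted p under 0.05. With no filter, edgeR tested 13627 genes and called 0.785% between stages in dorsal and 2.27% in ventral clusters, 0.0587% between sides at E10, 0.0881% between sides at E11 and 0.154% in the interaction. None of the 3 members was among those, and their adjusted p lay between 0.484 and 1 over the 5 contrasts. For Ptrf the log2 change from E10 to E11 was 0.53 in ventral clusters (adjusted p = 0.562, edgeR) and -0.15 in dorsal clusters (adjusted p = 1, edgeR). A transcript was seen in 13 of 21 E10 and 6 of 17 E11 ventral libraries, and in 5 of 7 E10 and 6 of 12 E11 dorsal libraries. So no stage or side difference in the members was called, and the smallest difference that could have been found was not tested.

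**Figure D5:**
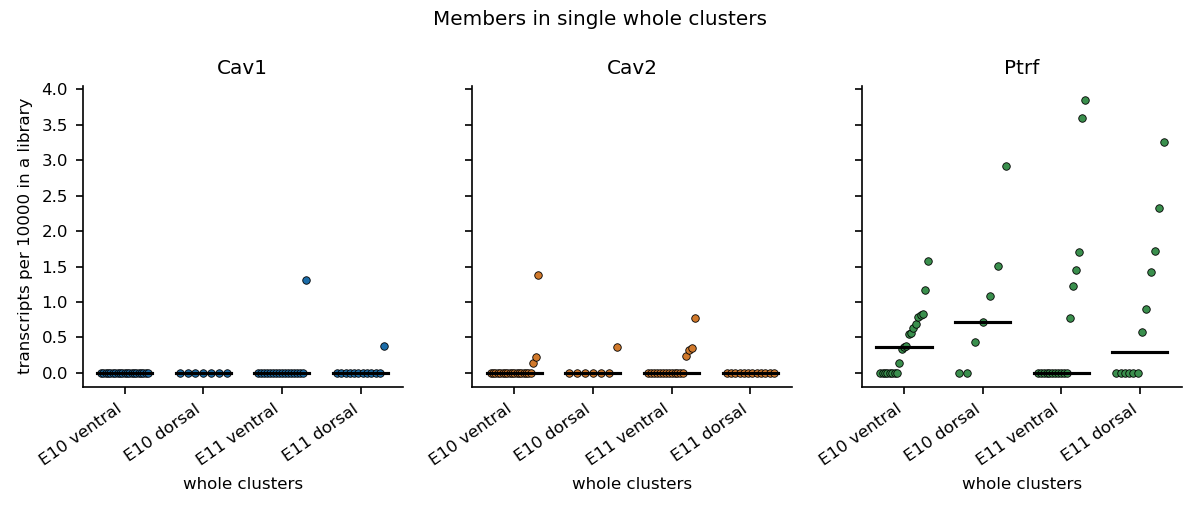
Transcripts of Cav1, Cav2 and Ptrf per 10000 in each of the 57 wIAHC libraries (dots), by stage and side, with the median of each group (line). Ptrf reaches 3.85 in E11 ventral clusters, and the dots of Cav1 lie at 0 in all but 2 libraries.

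Marker lists in whole clusters gave the setting of these values. Endothelial markers summed to about 10 per 10000 in both E10 groups and to 11.3 and 20.2 in E11 ventral and dorsal clusters, and haematopoietic markers to 18.1, 19, 16.0 and 16.0. Mesenchymal and mural markers were at 1.84, 1.68, 5.49 and 7.27 and macrophage markers at 1.65, 1.18, 0.900 and 0.790. Erythroid markers, with Hbb-y the most abundant, went from 1.65 and 1.97 at E10 to 202 and 145 at E11. The 2 richest libraries held 90.6% of these transcripts in E11 ventral and 91.5% in E11 dorsal clusters, and the median library was at 1.38 and 3.0 at E10 and at 30.0 and 18.7 at E11. The part of these cells in the levels of the members was not tested.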

How the data were processed

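The authors mapped reads with BWA 0.6.2-r126, and deposited an estimated count of transcripts per gene, corrected for repeated molecular tags. Single cells were deposited at 3000 (E10) or 5000 (E11) transcripts, and wIAHC counts were not scaled. The 90 spike-ins were left out. Members and lists were chosen with earlier results known. Every gene of a list was counted, and the 4 with the highest mean over populations were named with values in each list other than cell type markers, along with the 5 genes nearest to each member (1 near Cav1 is not reported here) and genes marked as named after their value was seen. The lists were caveola coat and neck, caveola-bound proteins, flotillin and clathrin endocytosis, chromosomal neighbours, and endothelial, haematopoietic, mesenchymal and mural, macrophage and erythroid markers. Marker lists are given as sums, and genes named in them were picked after their values were seen. wIAHC counts, rounded, were tested with edgeR 4.0.16 (TMM, filterByExpr, quasi-likelihood, 1 fit of 4 groups, Benjamini-Hochberg) and DESeq2 1.42.0 in R 4.3.3. Other steps used Python 3.11.15 with numpy 2.4.6, pandas 2.3.3, scipy 1.17.1 and matplotlib 3.10.9. Alternatives were thinned E11 cells, 0.5 added to ratios, leaving out cells with 4 or more macrophage markers, equal weight of sets, IAHC cells filtered again on Gpr56 and non-IAHC genes, a lower minimum for nearest genes, DESeq2, no filter, other library sizes, a covariate for iAHC2 columns, libraries without much haemoglobin and, chosen after seeing the data, leaving out type I sets, or same-numbered sets of both types, in turn. On made-up counts with known changes the fits recovered balanced changes well, but where changes shifted the make-up of libraries the filtered fits also called unchanged genes between stages.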

Additional observations from a re-analysis of the deposited data

Results flagged for a closer look

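Cav2 stood at 0.370 per 10000 transcripts in the highest E10 dorsal wIAHC library, which lay far from the other libraries of its group because those 6 were all at 0. The value rests on 1 transcript. Chance marks about 1 in 20 groups, and 2 were looked at, but where all other libraries are at 0 any single transcript is marked, so that rate does not hold here.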

How the results depend on the processing

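With 0.5 added in place of 0.1, the log2 ratio moved to -1.61 for Cav1 from E10 non-HE to HE cells, -0.57 for Cav1 and -0.62 for Ptrf from E10 HE to EHT cells, -1.81 for Cav1 from E11 HE to EHT cells, -0.39 for Cav1 from E11 EHT to c-kit+CD31+ IAHC cells and -0.47 for Ptrf from E10 IAHC cells to YS HSPCs, and 16 other ratios stayed within their intervals. Of these, Cav2 from E11 HE to EHT cells (-0.49), Ptrf from type I to type II pre-HSCs (-0.73) and Ptrf from E11 EHT cells to YS HSPCs (-0.91) were no longer past -1. Leaving out the richest type I set moved the Ptrf ratio of type II to type I pre-HSCs to -0.52 (-1.40 and -1.59 without either other set). Leaving out sets of the same number from both types gave -1.38, -0.61 and -1.54, and the cause was not tested. Thinned E11 cells, IAHC cells filtered again, equal weight of sets and leaving out cells with 4 or more macrophage markers left 14, 7, 22 and 22 ratios within their intervals. Among these, thinning put Cav2 from E11 HE to EHT cells at -0.96, and Cav1 from E11 EHT to c-kit+CD31+ IAHC cells at -0.91, both short of -1, and leaving out macrophage-like cells put Cav2 from E11 EHT to c-kit+CD31+ IAHC cells at -0.03. Of the 5 nearest genes, Cav1 kept 3, Cav2 3 and Ptrf 5 at a minimum of 0.2. With 0.5 added, Cav1 kept 3, Cav2 2 and Ptrf 2. In wIAHCs, the covariate for iAHC2 columns moved the ventral stage count to 39. Libraries of at least 10000 transcripts gave 3 dorsal and 132 ventral. Without a filter the counts were 107 dorsal, 310 ventral, 21 for the interaction, 8 for sides at E10 and 12 at E11. DESeq2, libraries of at least 3000 and those without much haemoglobin left all 5 counts within 1.5 times (24 dorsal became 28, 21 and 25, and 81 ventral 89, 70 and 73). Whether the same genes were called was not tested. Leaving out single libraries did not apply, since no group of libraries with at least 5000 transcripts had 5 or fewer. Both dorsal groups had 5 at 10000, where it was not run. No paired analysis was possible because the labels share no replicate numbers between groups, and numbers shared by sorted sets of pre-HSCs belong to values with no test. Strain goes with population, embryos are not labelled, and most populations are 1 sample.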
